A study of Mus musculus with 6 samples.

Results

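Intraepithelial lymphocytes (IEL) of the small intestine of old male C57BL/6 mice were compared with those of young mice on 4 microarrays, out of 6 in the series. The 3 old arrays are those titled IEL-cd4-old, IEL-cd27cd28-old and IEL-others-old (age 89 weeks per the labels), and the 1 young array is IEL-cd4-young (age 5 weeks). They were joined by a rule: for every probe the log2 difference of each old array from the young one was centred on its median over all probes, and the lowest and the highest of the 3 differences were kept. The methods describe staining for CD3e and CD4 and a sort of CD3+CD4+ cells; the sources used here do not give the gates of the fractions called cd27cd28 and others, so those names are used as written. The labels put 4 to 6 mice behind a group and do not say whether their RNA was pooled. The other 2 arrays hold CD4 T cells of the spleen (SP) of mice of the same ages and are used only for reference. Each group has 1 array, so no test, SD or p-value is given, and the 3 old arrays have 3 different titles and are not replicates. Since the gates are not given, how far the cells behind the 3 old arrays overlap is not known. All 3 differences also share the same young array, so that an error of that array would enter all of them in the same direction.

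IEL lie between the epithelial cells of the gut, and most are T cells that carry antigen experience, granzymes and receptors otherwise known from natural killer (NK) cells. CD4 T cells that settle in the epithelium can take on CD8αα homodimers (encoded by Cd8a alone), a receptor form that binds the thymus leukemia antigen of enterocytes. Age of T cells is commonly followed by loss of the costimulatory receptors CD27 and CD28 and by a lower capacity to divide, and these arrays ask how IEL of old mice differ from IEL of young mice.

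Values are normalised signals on a linear scale on which the median of the detected probes is 25 on every array. Between 72.4% and 85.2% of 23473 probes had a value on the 6 arrays, and between 4378 and 5269 had a signal over 100. A signal of 100 stood between 79.8 and 111.0 SD of the blank spots above their mean. Repeated spots of the positive controls had a log2 SD between 0.0797 and 0.212, which covers spot error alone. Before centring, the median log2 difference from young IEL was -0.08 on old IEL CD4, 0.54 on cd27cd28 and 0.43 on others. Among the 4817 probes with a mean signal over 100 on the 4 arrays these medians were -0.09, 0.43 and 0.33. All differences below are relative to the all-probe medians.

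T cell markers were present on all 4 IEL arrays. The 8 T cell defining markers with a probe all had signals over 100 on each of them, and their summed signal was 13961 on young IEL, 13188 on old IEL CD4, 19544 on cd27cd28 and 18925 on others. Cd4 had a signal of 475.0 on young IEL, 434.0 on old IEL CD4, 894.2 on cd27cd28 and 665.8 on others, a centred difference within 0.38 log2 of 0 on all 3 old arrays. Cd3e had 114.0, 142.9, 306.3 and 228.8 on the same arrays. Cd28, the costimulatory receptor, had 4759 on young IEL, 4257 on old IEL CD4, 4621 on others and only 852.7 on cd27cd28, 3.02 log2 below young IEL. Cd27 was dim on every IEL array, between 38.1 and 65.6. Cd28 thus set the cd27cd28 array apart from the other 3 IEL arrays, whereas Cd27 was too dim on all of them to do so.

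Markers of other cells stood out most on the others array, and 2 epithelial lectins on young IEL too. The 11 Paneth cell markers with a probe summed to 218.5 on young IEL, 182.7 on old IEL CD4, 326.7 on cd27cd28 and 7778 on others, and the 26 enterocyte and goblet markers to 1025, 541.2, 809.8 and 3253. On the others array Defa24, a Paneth cell defensin, reached 1526 against 12.03 on young IEL, Lyz1 (Paneth cell lysozyme) 1102 against 30.1, and Krt8, a keratin of epithelia, 376.5 against 22.1. Reg3b, an antibacterial lectin of enterocytes, had 448.3 on young IEL, 15.2 on old IEL CD4, 27 on cd27cd28 and 1055 on others. Its relative Reg3g had 44.4, 6.1, 10.3 and 149.1. These 2 lectins were thus brighter on the shared young array than on 2 of the old arrays. This does not hold for the whole list, where Cdh1 and Fabp2, given below, went the other way. The 17 myeloid and antigen-presenting cell markers summed to 493.9, 499.3, 464.2 and 1775. Of these 17, 5 had a signal over 100 on others, beside 1 on young IEL, 1 on old IEL CD4 and 0 on cd27cd28. On others they were Lyz2 (713.1), H2-Aa (379.7), H2-Eb1 (162.0), Cd74 (107.2) and Cd68 (102.8). The list was uneven: Csf1r (61.8) and Sirpa (54.5) were dimmer on others than on cd27cd28 (72.8 and 68.5), but C1qb was brighter (62.1 against 6.3). Itgam, a defining myeloid marker, had no value on any array, so it cannot tell the arrays apart. B cell markers (7) summed to between 143.7 and 195.2 on the 4 arrays. No member of the 10 cell type lists was called in the same direction on all 3 old arrays, but few were bright enough to be tested. Tested were 1 of 23 enterocyte and goblet markers with values and 0 of 7 Paneth cell markers. Of those 23, 7 were above 0 on all 3 old arrays and 3 below, beside 4210 and 4300 of 13742 genes in all. Untested Cdh1 (1.67, 1.86 and 1.91 log2) and Fabp2 (2.87, 1.32 and 2.67) were over 2-fold higher on all 3. What part these cells have in the differences from young IEL was not tested.

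**Figure D1:**
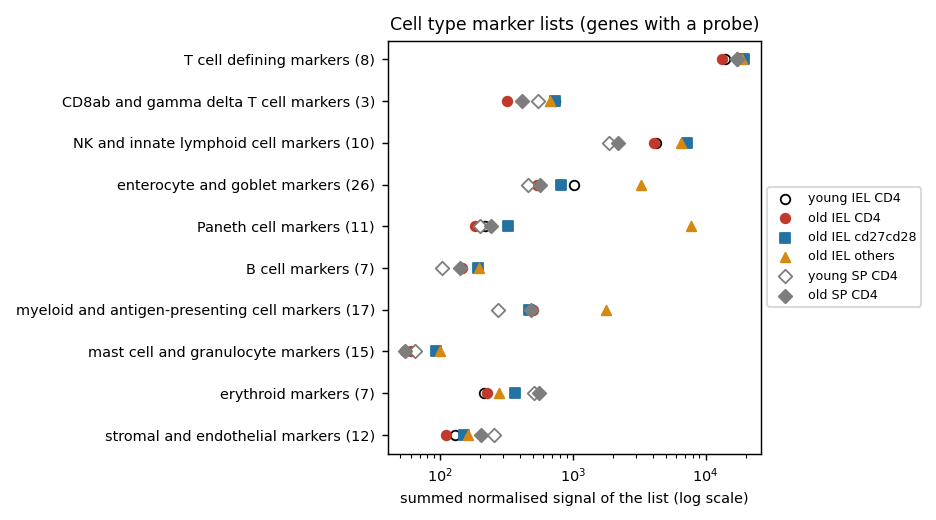
Summed normalised signal (log scale) of 10 cell type marker lists on the 6 arrays, with the number of genes that have a probe in brackets and 1 point per array. The Paneth cell list stands at 7778 on the old IEL others array and between 182.7 and 326.7 on the other IEL arrays.

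A probe was called shared when all 3 old arrays differed from young IEL by more than 2-fold in the same direction and the brighter array of each comparison had a signal over 100. Of 4778 probes with values on the 4 arrays and enough signal, 57 (1.19%) were higher on all 3 old arrays and 69 (1.44%) were lower on all 3. Taken alone, old IEL CD4 had 150 probes higher (3.11%) and 148 lower (3.07%) of 4819, cd27cd28 had 158 higher (2.91%) and 385 lower (7.09%) of 5432, and others had 154 higher (2.87%) and 139 lower (2.59%) of 5372. The split into higher and lower rests on the centring: without it 87 probes were higher and 25 lower, with a common 75th percentile in its place 92 and 25, with 16 added to the signals before log2 61 and 32, and with centring on probes over 100 it was 69 and 54. Counted by gene, with the probes of a gene averaged, 46 of 4061 tested genes (1.13%) were shared higher and 58 (1.43%) shared lower. The probe nearest to the threshold had a least difference of 1.00383 inside and 0.99588 outside it among the higher probes, and -1.00010 and -0.99892 among the lower ones. Of the 45 shared genes named by rule, 20 higher and 25 lower, a background correction by normexp left 5 and 7 past 2-fold and turned the least difference of 8, among them Cd7 (-1.92), Gzma (-4.75), Cd244a (-0.34) and Camk2n1 (-0.80); the local background it subtracts tracked the spot itself, with a correlation over spots between 0.955 and 0.981 on the 6 arrays.

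The 3 old arrays lay close together for most genes. The spread, the highest minus the lowest of the 3 differences, had a median of 0.33 log2 and a 75th percentile of 0.52 over the tested genes, and 233 genes had a spread over 1. The least difference from young IEL was wider than this spread for 44 of the 46 shared higher genes and 42 of the 58 shared lower genes, beside 25.1% of all tested genes; since the calls were made on large least differences, this describes them and tests nothing. The lower genes were less even among the old arrays, with a median spread of 0.94 log2 against 0.58 for the higher ones. The difference was largest on cd27cd28 for 34 of the 58 lower genes, and least on others for 29 of them.

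**Figure D2:**
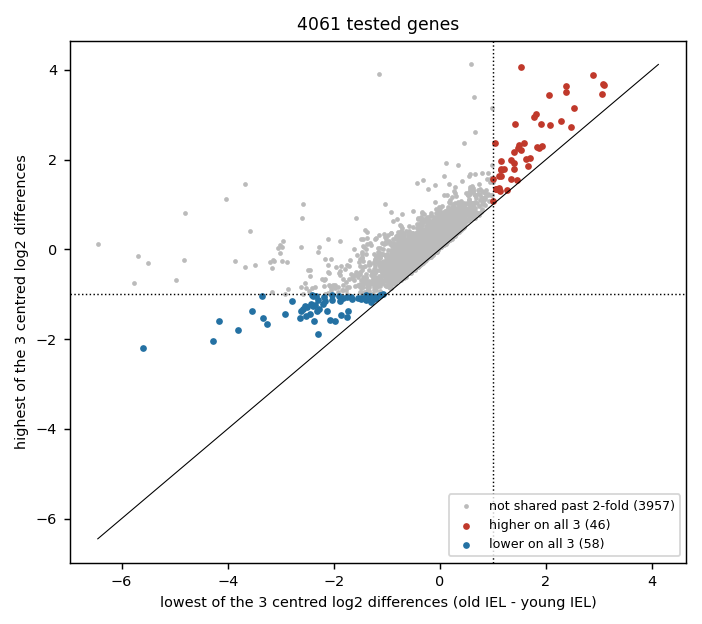
Lowest (x axis) and highest (y axis) of the 3 centred log2 differences between old and young IEL for the 4061 tested genes, 1 point per gene; dotted lines mark 2-fold and the diagonal marks equal values. The 46 genes higher and the 58 genes lower on all 3 old arrays lie past the dotted lines, and most other genes lie close to the diagonal.

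Among the shared higher genes, Cd8a, the α chain of CD8, had the largest least difference. Its signal, the mean of 2 probes, was 128.5 on young IEL and 1545, 1763 and 1487 on old IEL CD4, cd27cd28 and others. The 3 old arrays lay within 0.57 log2 of each other and all far above the young one, by 3.67, 3.24 and 3.10 log2 (at the least 8.58-fold). Cd8b1, which encodes the β chain of the CD8αβ form, went the other way, with 646.8 on young IEL and 232.1, 611.2 and 555.4 on the old arrays, or -1.39, -0.62 and -0.65 log2. Only old IEL CD4 passed 2-fold for Cd8b1, so it was not called. Among the 13 genes of coreceptors and lineage factors, 7 were tested, and Cd8a was the single shared call, beside 1.13% of all tested genes shared higher.

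Cd244a, which encodes the SLAM family receptor 2B4, went from 170.1 on young IEL to 1509, 2714 and 1917 on the old arrays, at the least 8.35-fold. It had no value on either SP array. The other tested members of the SLAM list (5 of 6 tested) were not called, and the list had a median middle difference of -0.62 log2 over its 9 members with values. Sh2d1a, the adaptor SAP that these receptors signal through, had 1906 on young IEL and 892.3, 664.4 and 1447 on the old arrays. Those differences were -1.01, -2.06 and -0.83 log2, the opposite direction from Cd244a.

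Of the CD200 receptors, Cd200r1, Cd200r2 and Cd200r4 were shared higher. Over all tested genes 1.13% were shared higher and 1.43% lower. Cd200r3 was not tested, with 15.43 on young IEL and 23, 25.9 and 28.8 on the old arrays (0.66, 0.21 and 0.47 log2). Cd200r2 had 63.5 on young IEL and 681.1, 475.7 and 565.9 on the old arrays, Cd200r1, the inhibitory receptor for CD200, had 51.2 and then 236.9, 283.4 and 291.9, and Cd200r4 had 58.4 and then 165.2, 188.7 and 272.0. The least differences were 2.37, 1.93 and 1.15 log2, and in each case the young array lay below all old ones. These genes are close relatives, and how far their probes tell them apart was not tested. In the same list of 13 receptors, where 6 were tested, the inhibitory immunoglobulin-like receptors Lilrb4a and Lilr4b were shared lower: Lilrb4a had 526.8 on young IEL and 184.5, 140.3 and 244.4 on the old arrays. Lilr4b had 282.4 and then 111, 100 and 189.5, just past 2-fold at -1.01 log2. Without centring 1 of these 2 lower calls remained and all 3 higher ones.

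Of 6 tested chemokine genes, Ccl4 and Ccl3 were shared higher and Ccl20 shared lower. Over all tested genes 1.13% were shared higher and 1.43% lower. Ccl4 had 891.3 on young IEL and 3516, 13983 and 5979 on the old arrays, and Ccl3 had 205.8 and then 665.1, 2316 and 1101. For Ccl4 and Ccl3 the cd27cd28 array was the brightest, and the least differences were 2.06 and 1.78 log2 on old IEL CD4. Gzma (granzyme A) had 2911 on young IEL and 7948, 16059 and 10377 on the old arrays, at the least 2.64-fold. It was the single shared call among 9 tested cytotoxic effectors, whose list had a median middle difference of 0.41 log2 over 14 members. Cst7, which encodes cystatin F, an inhibitor of granzyme-processing cathepsins, had 783.9 and then 2749, 5312 and 3060.

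Plcg2, encoding the phospholipase C form of B and NK cells, had 14.2 on young IEL and 147.3, 267.2 and 162.2 on the old arrays. It was the single shared call of 8 tested ITAM adaptors and their partners, beside 1.13% of all tested genes shared higher. Cd7, a surface glycoprotein of T and NK cells, had 816.9 on young IEL and 3669, 4294 and 4375 on the old arrays. Scin (scinderin, an actin-severing protein) had 290.4 and then 3195, 6267 and 2888. Camk2n1, an inhibitor of the kinase CaMKII, had 99.7 and then 834.2, 1154 and 771.9. For Plcg2, Cd7, Scin and Camk2n1 alike, every old array was brighter than the young one by at least 3.62-fold after centring.

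The other leading higher genes had signals under 100 on young IEL. Naip2, a cytosolic sensor of bacterial secretion system proteins, had 18.02 and then 106.6, 172.4 and 134.6, and its relative Naip5, a flagellin sensor, had 46.0 and then 222.7, 235.3 and 185.2. Prodh (proline dehydrogenase) had 20.9 and then 103.0, 378.3 and 149.6. The cd27cd28 array stood highest for Prodh, 1.23 log2 above the next old array. Unc5a, a netrin receptor, had 27.8 and then 110.1, 273.2 and 165.4. Klf9, a Krüppel-like transcription factor, had 41.0 and then 186.6, 215.4 and 198.8, the most even of these across the old arrays apart from Naip2. Mras (a small GTPase) had 53.3 and then 340.4, 628.3 and 253.7, and Tspan9, a tetraspanin, 32.8 and then 116.4, 330.6 and 228.6. The 46 higher genes also include 3 predicted genes or clones, which were not ranked, and members of multigene families (Olfr229, Olfr59 and Vmn1r65), whose copies the probes may not tell apart; these 3 are named outside the ranking.

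**Figure D3:**
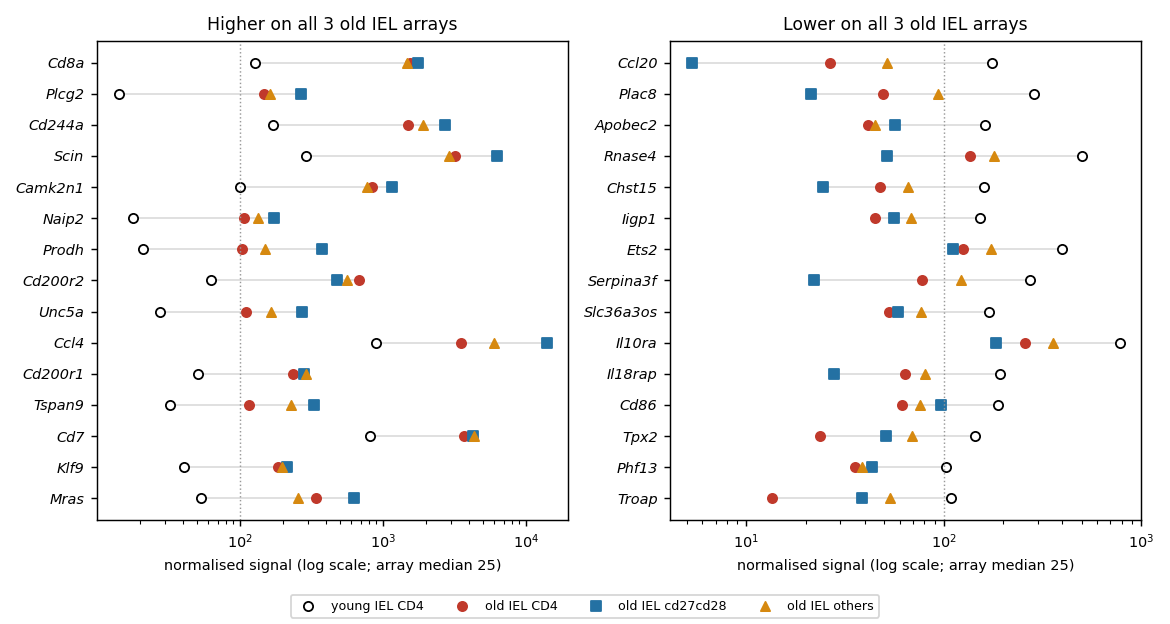
Normalised signal (log scale) on the young IEL array (open circles) and the 3 old IEL arrays for the 15 genes with the largest least difference in each direction; the dotted line marks a signal of 100. For every gene shown the young array lies outside the range of the old ones, as the rule requires, and Cd8a goes from 128.5 to between 1487 and 1763.

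Hspa1a, which encodes an inducible chaperone of the HSP70 family, was the single shared call among 12 tested heat shock genes. Over all tested genes 1.13% were shared higher. Its signal was 31.9 on young IEL and 505.5, 209.3 and 124.6 on the old arrays, which put old IEL CD4 1.89 log2 above the next old array. Stip1, a co-chaperone, had 170.7 and then 455.2, 494.0 and 473.9, with differences of 1.5, 1.0 and 1.04 log2, and 2 members were called where centring was left out. Of 16 members with values, 11 were above 0 on all 3 old arrays, beside 4210 of 13742 genes in all, and the list medians were 0.96 on old IEL CD4, 0.21 on cd27cd28 and 0.36 on others, beside medians of 0.00 over all genes. Old SP stood above young SP for this list too, with a median of 0.82 log2 and 4 of 13 tested members over 2-fold higher, beside 3.86% of all genes tested in SP, where the signal minimum favours genes high on 1 array. Hspa1a has a near-identical neighbour, Hspa1b, and its probe may read both. The promoter of Hspa1a is shown because heat shock factor binds inverted GAA repeats; RefSeq gives it at chr17:34972107-34972406 (GRCm38.p6, minus strand), 250 bases before to 50 after the start, and the capitals mark the match to GAANNTTC:
Hspa1a: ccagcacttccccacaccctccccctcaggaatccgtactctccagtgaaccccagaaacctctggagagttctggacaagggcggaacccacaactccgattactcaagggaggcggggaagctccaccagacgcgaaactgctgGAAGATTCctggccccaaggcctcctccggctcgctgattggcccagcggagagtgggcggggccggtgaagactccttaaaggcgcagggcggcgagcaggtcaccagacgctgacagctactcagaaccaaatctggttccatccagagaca
The motif, which reads the same on both strands, was in 7.86% of all 32851 promoter windows and in 47.6% of the 21 windows of the heat shock list. A match is a description of letters and not of binding.

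Of the genes of mitosis, some passed 2-fold downwards on every old array and most of the rest lay below 0. They encode the machinery of chromosome segregation and mitotic exit, and in resting T cells they are nearly silent. Of 18 tested genes of the mitosis list 7 were shared lower (Troap, Tpx2, Bub1b, Ccnb2, Sgo1, Cdc20 and Top2a) and 0 higher, beside 1.43% of all tested genes lower. On old IEL CD4 all 7 had signals under 100. They thus met the signal minimum there through young IEL, which favours lower calls. Ccnb2, the mitotic cyclin B2, had 214.6 on young IEL and 35.7, 76.0 and 118.8 on old IEL CD4, cd27cd28 and others. Bub1b, a kinase of the spindle checkpoint, had 142.3 and then 30.9, 57.8 and 73.6, and Tpx2, which activates Aurora A on the spindle, 143.5 and then 23.6, 50.9 and 68.8. The old arrays kept the same order in these 3 genes, old IEL CD4 lowest and others highest, with none reaching the young array. Troap (a spindle protein) had 109.2 and then 13.6, 38.7 and 53.8, Top2a (topoisomerase II alpha) 243.7 and then 42.6, 72.0 and 140.9, and Cdc20, which turns on the anaphase-promoting complex, 326.2 and then 60.1, 163.7 and 188.2.

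Dim members of the list, which could not be called, are given by their direction alone. Of 29 members with values, 28 were below 0 on all 3 old arrays, beside 4300 of 13742 genes in all; the exception was Sgo2a. The median difference was -2.36 on old IEL CD4, -1.89 on cd27cd28 and -1.18 on others. Among those 28 the others array was the least far below young IEL in 27, and old IEL CD4 the farthest in 24. Thus 26 members were over 2-fold lower on old IEL CD4, 25 on cd27cd28 and 16 on others, signal not considered. Over all probes, with no signal minimum, the lower counts summed to 1971 over the 3 comparisons, which had 16368, 17239 and 17275 probes. Without the others array 15 of the 18 tested members were shared lower, beside 123 shared lower probes in all. Leaving out either of the other old arrays left 7, beside 116 probes without old IEL CD4 and 72 without cd27cd28. Without centring 2 remained and the median middle difference moved from -1.84 to -1.36 log2; the direction held. Young IEL was above both SP arrays in 27 of the 29 members, and the median SP difference was -0.21 log2.

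The promoters of 3 shared lower members that hold a match are shown because many late cell cycle genes share the CCAAT box and the cell cycle homology region (TTTGAA), and these genes were lower together. Capitals mark matches to CCAAT or TTTGAA on either strand, and the windows run from 250 bases before to 50 after the start in RefSeq (GRCm38.p6): Troap at chr15:99074723-99075022 (plus strand), Bub1b at chr2:118597961-118598260 (plus strand) and Ccnb2 at chr9:70421505-70421804 (minus strand).
Troap: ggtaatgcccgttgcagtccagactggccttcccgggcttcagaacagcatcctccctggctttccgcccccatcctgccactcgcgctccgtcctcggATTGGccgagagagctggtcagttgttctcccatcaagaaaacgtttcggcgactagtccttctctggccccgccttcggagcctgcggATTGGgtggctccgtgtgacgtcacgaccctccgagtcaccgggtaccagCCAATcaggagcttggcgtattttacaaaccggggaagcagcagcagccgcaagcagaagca
Bub1b: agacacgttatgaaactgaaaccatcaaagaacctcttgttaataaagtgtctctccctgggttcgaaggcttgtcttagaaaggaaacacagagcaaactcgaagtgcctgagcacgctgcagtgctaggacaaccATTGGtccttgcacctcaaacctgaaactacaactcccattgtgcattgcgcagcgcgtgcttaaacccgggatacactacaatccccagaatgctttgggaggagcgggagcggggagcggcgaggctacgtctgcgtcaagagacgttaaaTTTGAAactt
Ccnb2: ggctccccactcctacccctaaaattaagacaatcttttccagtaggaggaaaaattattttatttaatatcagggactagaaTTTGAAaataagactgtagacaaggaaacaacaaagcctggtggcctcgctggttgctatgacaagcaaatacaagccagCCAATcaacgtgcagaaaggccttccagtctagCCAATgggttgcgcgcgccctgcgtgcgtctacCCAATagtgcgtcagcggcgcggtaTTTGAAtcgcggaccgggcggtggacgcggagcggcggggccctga
The window of Troap holds 3 matches to the CCAAT box and 0 to the homology region, that of Bub1b holds 1 of each, and that of Ccnb2 holds 3 and 2. The box was in 37.4% and the homology region in 17.9% of all 32851 promoter windows, and in 80% and 62.9% of the 35 windows of the mitosis list. Among the 6 windows found for the shared lower members, 6 held the box and 4 the homology region. A match is not a site, and these shares were not tested.

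DNA replication genes lay lower to a smaller degree. Of 23 tested, 4 were shared lower, beside 1.43% of all tested genes, and 0 higher. The signal minimum, met through young IEL where an old array was under 100, favours lower calls here too. Mcm6, a subunit of the replicative helicase, had 415.8 on young IEL and 135.5, 163.9 and 252.1 on the old arrays, and Rrm1, the large subunit of ribonucleotide reductase, 187.4 and then 56.4, 85.9 and 116.8. Uhrf1, which guides maintenance DNA methylation, had 869.2 and then 232.4, 430.3 and 550.4, and Mcm10 148.8 and then 27.8, 51.9 and 97.0. These 4 passed 2-fold narrowly on the others array, between -1.05 and -1.15 log2, and 0 were called without centring or with 16 added before log2. Of 35 members with values 31 were below 0 on all 3 old arrays, beside 4300 of 13742 genes in all, and the list medians were -1.08, -0.96 and -0.63. Pcna, the sliding clamp, moved little on others, at -0.13 log2 (1703 on young IEL and 2100 on others), and was not called. Lmnb1 (lamin B1) is a nuclear lamina gene whose loss is used as a mark of senescent cells. It had 295.9 on young IEL and 108.3, 86.7 and 115.0 on the old arrays. It was the single shared call among 9 tested genes of cell cycle inhibitors and senescence. The inhibitor Cdkn1a was lower too, with 226.7 and then 135.8, 73.5 and 102.5. Cdkn2b, not tested, was higher, with 10.2 and then 60.8, 105.9 and 85.3. Of 16 members with values 4 were above 0 and 7 below 0 on all 3 old arrays.

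**Figure D4:**
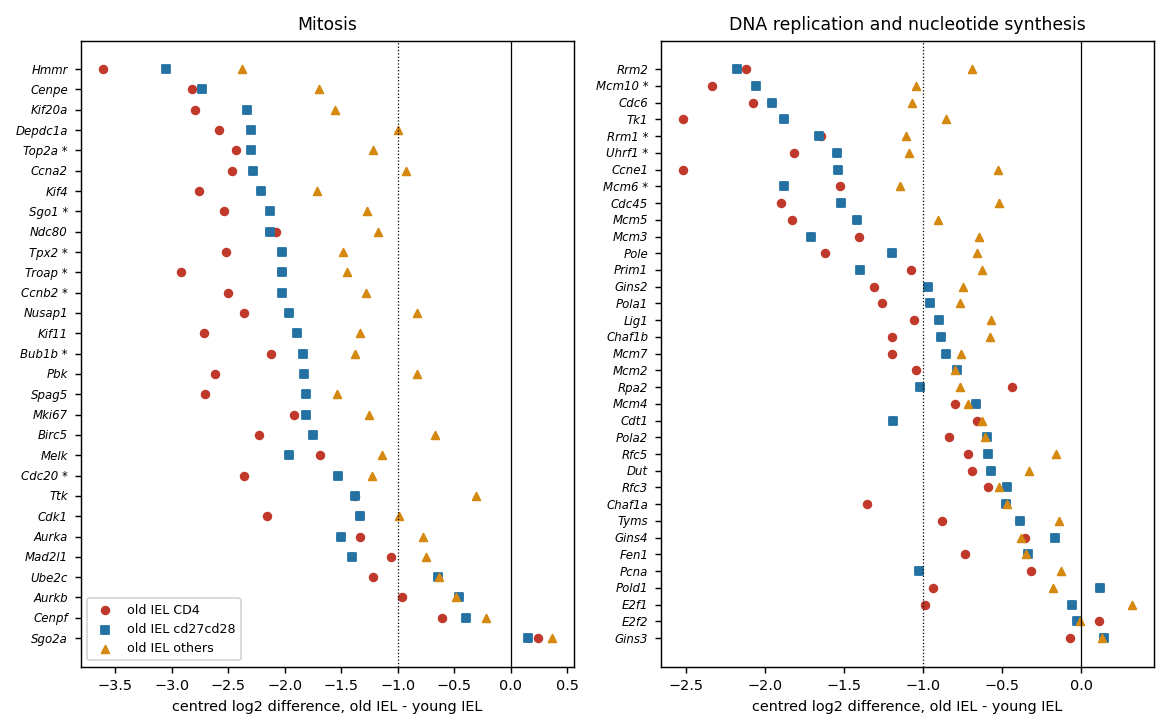
Centred log2 difference of the 3 old IEL arrays from young IEL for the members of the mitosis list (left) and the DNA replication list (right) with values on the 4 arrays, 1 point per array; an asterisk marks genes called shared lower and the dotted line marks 2-fold. In the mitosis list 28 of 29 genes lie below 0 on all 3 arrays and the others array is mostly nearest to 0.

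Single shared lower calls came from the Th17 (7 tested), Th1 (8), Th2 (4) and NF-kB (10) lists. The lists of cytokines (4 tested), chemokine receptors (6) and common gamma chain receptors (8) had 0. Over all tested genes 1.43% were shared lower, a share that would also give 0 calls in lists this short. Ccl20, the ligand of CCR6, had the largest least difference of all lower genes: 175.7 on young IEL and 26.5, 5.3 and 51.8 on the old arrays. The cd27cd28 array was far below the other 2 old arrays, and Ccl20 had no value on either SP array. Il10ra, the ligand-binding chain of the interleukin 10 receptor, had 780.6 and then 257.1, 183.6 and 356.6, and Il18rap, the accessory chain of the interleukin 18 receptor, had 192.5 and then 63.4, 27.8 and 80.1. Il10 itself had 308.2 on young IEL and 129.6, 100 and 187.5 on the old arrays, with a least difference of -1.15 log2 that fell short of 2-fold without centring. Nfkbiz, an atypical inhibitor of NF-kB, had 255.9 and then 87.5, 62.3 and 138.4, and was the single shared call among 10 tested genes of its pathway.

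The rest of the leading lower genes serve mixed roles. Plac8, a small cysteine-rich protein of lymphocytes, had 285.9 on young IEL and 49.6, 21.4 and 93.6 on the old arrays. Rnase4, a secreted ribonuclease, had 502.7 and then 136.3, 51.9 and 180.1, and Serpina3f, a protease inhibitor, 274.8 and then 77.6, 22.1 and 123.1. In these 3 genes the cd27cd28 array was the lowest of the old arrays, after centring as well. Apobec2 (a member of the cytidine deaminase family) had 163.0 and then 41.5, 56.6 and 45.1, Chst15, a sulfotransferase, 160.5 and then 47.9, 24.4 and 66.3, and Ets2 (a transcription factor) 397.3 and then 124.8, 111.6 and 174.8. Iigp1, an interferon-induced GTPase that acts on intracellular parasites, had 153.5 and then 45.0, 56.4 and 68.3. Cd86, a costimulatory ligand, had 189.3 and then 61.4, 96.9 and 75.7. Phf13, a chromatin reader, had 103.3 and then 35.5, 43.2 and 38.4, and the noncoding Slc36a3os 169.9 and then 52.8, 58.8 and 76.9. For Plac8, Apobec2, Chst15, Iigp1, Cd86, Phf13 and Slc36a3os every old array lay under 100. The same holds for Ccl20 and Il18rap above. All of these met the signal minimum through young IEL, which favours lower calls.

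Many lists held no shared call. Of the 33 functional lists 17 had none, among them T cell receptor signalling (11 tested), follicular helper genes (3), regulatory T cell genes (5), chemokine receptors (6), naive and central memory genes (6), interferon-stimulated genes (12), immediate early genes (10), cytosolic ribosomal proteins (17), oxidative phosphorylation (20), glycolysis (10) and housekeeping genes (9). The 12 tested interferon-stimulated genes had 0 calls, which a share of 1.43% would also give, and the same holds for the other lists named here. Of the 18 members with values 13 were below 0 on all 3 old arrays, beside 4300 of 13742 genes in all, and the list's median middle difference was -0.53 log2; Irf1, a transcription factor of this response, had 4728 on young IEL and 2636, 2744 and 2413 on the old arrays. Naive and central memory genes had a median of -0.74 log2 and 9 of 13 members below 0 on all 3. Ribosomal and respiratory lists had medians of -0.02 and -0.08. Rpl19 differed by 0.06, -0.05 and -0.11 log2, and the housekeeping gene Ppia by 0.09, -0.12 and -0.14, so that these genes sat near the all-probe median.

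Klrd1, Fcer1g and Cxcl2, which the study singles out, and Klra5 of the Ly49 list were not shared by the old arrays. Klrd1, which encodes CD94, the partner of the NKG2 receptors, had 167.6 on young IEL, 2745 on old IEL CD4 and 1701 on others but 366.1 on cd27cd28, or 4.12, 2.91 and 0.59 log2. Fcer1g, the Fc receptor γ chain that carries an ITAM, had 201.1, 2825 and 1560 on the same arrays and 131.2 on cd27cd28. Both were thus high on old IEL CD4 and others, while cd27cd28 lay within 2-fold of young IEL for Klrd1 and 1.15 log2 below it for Fcer1g. Cxcl2, a neutrophil attractant, had 29.5 on young IEL, 79.9 on old IEL CD4, 147.1 on others and 5.3 on cd27cd28. Klra5, a receptor of the Ly49 family, had 54.3 on young IEL and 1013 on old IEL CD4, but 8.0 on cd27cd28 and 11.2 on others. The Ly49 genes are near copies of each other, and 4 of 11 on the list had values on the 4 arrays.

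Cytokines and checkpoint receptors of the study gave smaller or uneven differences. Ifng (interferon γ) had 6316 on young IEL and 9511, 15491 and 10433 on the old arrays, between 0.29 and 0.76 log2 and never past 2-fold. Ctla4, an inhibitory receptor, had 14281 and then 10123, 10252 and 12474, and passed 2-fold downwards only on cd27cd28, at -1.02 log2. Il21, the cytokine of follicular helper cells, had 240.3 and then 107.4, 47.9 and 176.6, short of 2-fold on others at -0.88. Tnf had 75.6 and then 72.6, 255.3 and 167.5, Lag3 23.6 and then 37.4, 34.4 and 50.8, and Il4 60.8 and then 23.2, 5.4 and 53.1. Il18 was dim throughout, between 4.44 and 22.8. The signals of Lag3, Il4 and Il18 stayed under 100 on all 4 arrays, so that they could not be called.

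Only 4 tested genes were over 2-fold higher on 1 old array and over 2-fold lower on another: Cpe (carboxypeptidase E), S100a4 and S100a6 (calcium-binding proteins of memory and effector T cells), and Fcer1g. Cpe had 126.2 on young IEL, 259.8 on old IEL CD4, 283.7 on others and 11.1 on cd27cd28. S100a4 had 295.5, 758.9 and 814.6 on the same arrays and 33.4 on cd27cd28. S100a6 had 181.3, 342.7, 390.3 and 44.1. In all 4 it was the cd27cd28 array that lay below young IEL. More widely, cd27cd28 stood over 2-fold below both other old arrays for 96 tested genes and above them for 4, old IEL CD4 stood above both for 11 and below for 1, and others above both for 16 and below for 0. Ccr6, the receptor of Ccl20, had 348.3 on young IEL, 531.9 on old IEL CD4, 734.4 on others and 84.1 on cd27cd28, and Satb1, a chromatin organiser of naive T cells, had 488.3, 237.9, 331.5 and 79.3. Icos, a costimulatory receptor, had 447.8, 285.6, 475.1 and 150.5. Without the cd27cd28 array 91 probes were shared higher in place of 57.

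**Figure D5:**
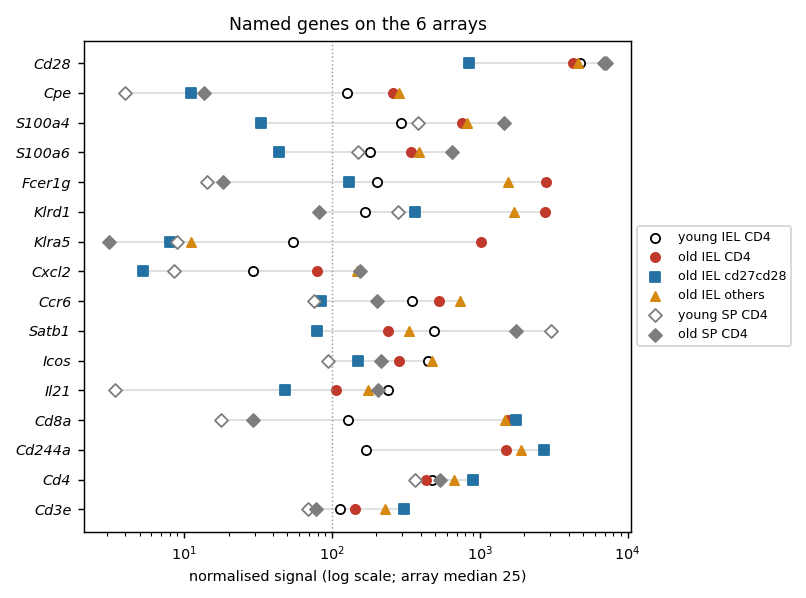
Normalised signal (log scale) of 16 named genes on the 6 arrays, 1 point per array. For Cd28, Cpe, S100a4, S100a6 and Fcer1g the old IEL cd27cd28 array (square) lies apart from the other old IEL arrays, whereas for Cd8a and Cd244a the 3 old IEL arrays lie together.

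Probes without a value on one side give bounds only, set against the lowest value of the array that lacks one and centred in the same way. There were 513 probes with values on all 3 old arrays and none on young IEL, of which 2 were over 100 on each old array, and 48 probes with a value on young IEL alone, the brightest at 6.84. The largest bound of the first kind was that of Zkscan6, a zinc finger protein, with 105.9, 180.4 and 145.0 on the old arrays, at least 46.8-fold higher. Rasgrf1, an exchange factor for Ras, had 207.5, 168.5 and 133.5, at least 43.1-fold higher. Rasgrf1 had 21.8 on old SP and no value on young SP, but Zkscan6 had 176.0 and 175.9 on the SP arrays, so its missing value sets young IEL apart from all 5 other arrays. Ddhd1 (50, 75.7 and 65.5), Fam171b (31.4, 44.1 and 37.9) and Csprs (31.4, 60.4 and 35.7) followed, at least 21.1-fold, 12.2-fold and 11.5-fold higher. Of the probes with a value on young IEL alone, Sez6 (6.78), Pdk1 (5.404), Olfr492 (5.39), Pla2g10 (5.35) and Elapor2 (4.81) were the brightest with a named gene, at least 2.56-fold, 2.04-fold, 2.03-fold, 2.02-fold and 1.81-fold lower on the old arrays. The values on the young side lay close to the lower end of detection.

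The spleen arrays, which the rule did not use, show how far the shared genes differ with age outside the gut. Of the 46 shared higher genes 44 had values on both SP arrays, with a median difference between old and young SP of 0.64 log2, and 35 of them were above 0 beside 7591 of 15060 genes in all. In SP 21 of them passed the signal minimum, of which 12 passed 2-fold upwards with age and 2 downwards; over all 4487 genes tested in SP 3.86% were higher and 0.802% lower. The signal minimum favours genes that are high on 1 array: of the 13 whose young SP signal was itself over 100, 5 were higher. Prnp, the prion protein gene, had 124.2 on young SP and 860.6 on old SP, and in IEL 82.2 on the young array and 211.5, 345.2 and 324.4 on the old ones. Cst7 had 190.6 and 952.4 in SP. Hspa1a had 24.1 on young SP and 434.3 on old SP. Cd8a stayed low in SP, at 17.8 and 29.2, and Gzma at 6.5 and 6.8, under the signal minimum, so that neither could be called there; the difference between the organs was not tested. Prnp and Cst7 are named here outside the ranking.

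Of the 58 shared lower genes, 56 had values on both SP arrays, with a median SP difference of -0.21 log2 and 22 above 0. Of the 34 that passed the signal minimum in SP, 5 passed 2-fold upwards with age and 1 downwards, beside 3.86% and 0.802% of all genes tested in SP. Of the 24 whose young SP signal was itself over 100, 0 passed upwards. Il10ra, with 417.4 on young SP and 725.8 on old SP, was brighter on both than on any old IEL array. Since each organ and age has 1 array, none of these counts can be set against a spread between mice, and fewer cells of a type and less RNA per cell cannot be told apart in such bulk samples.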

How the data were processed

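The deposited scanner files hold the intensity of each spot of a Toray 3D-Gene mouse oligo chip, hybridised with Cy5-labelled RNA and read at 635 nm at 3 gains. The authors subtracted the mean of the blank spots, kept probes over that mean plus 2 SD, with 5% of the blanks left out at each end, and scaled each array to a median signal of 25; these deposited normalised signals were the values used here. Recomputing them from the intensity columns gave a correlation of 1.00000 with the table. Symbols came from the platform annotation: 20690 probes had 1 gene, 0 several and 2783 none.

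Log2 differences from young IEL were centred on the median over all probes. Calls needed more than 2-fold and a signal over 100 on the brighter array. The values 2-fold and 100 are those of the study's methods, which name neither the brighter array nor a centring of differences. A gene's value is the mean log2 difference of its probes. With 1 array per group no test was made. Named genes were the 15 per direction with the largest least difference, up to 4 shared calls per list or its 2 brightest members, the widest opposite spreads, the brightest bounds, the sort markers and genes named in the study. The members and lists were chosen with earlier results of these data known. The counting rule was tried on simulated data in which changes were put into bright probes and spot error was the only noise. Changes in dimmer probes and the spread between mice were not simulated. Python 3.11.15, pandas 2.3.3, numpy 2.4.6, matplotlib 3.10.9, R 4.3.3 and limma 3.58.1 (normexp alternative) were used. The number of arrays limits the precision.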

Additional observations from a re-analysis of the deposited data

Results flagged for a closer look

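The results below went opposite ways with age in IEL and in SP; each group has 1 array and the difference between the organs was not tested. Cd7 and Tspan9, higher on all 3 old IEL arrays, were lower in old than in young SP, by -1.46 and -3.23 log2. Il10, lower on all 3 old IEL arrays, was higher in old SP by 2.63 log2, with 19.2 on young SP and 124.6 on old SP. Rnase4 (2.94 log2), Serpina3f (2.80), Nfkbiz (1.48) and Phf13 (1.10) were likewise lower on the old IEL arrays and higher in old SP. Il10 and these genes were under 100 on young SP and met the signal minimum through old SP, which favours higher calls. Of the 24 shared lower genes whose young SP signal was over 100, 0 passed 2-fold upwards. Cd7 and Tspan9 were under 100 on old SP (58.8 and 29) and met the minimum through young SP. Over all genes tested in SP 3.86% were higher and 0.802% lower.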

How the results depend on the processing

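The shared counts (57 higher, 69 lower) rest on how the arrays are scaled. Without centring they were 87 and 25, and with 75th percentile scaling 92 and 25; the own counts summed over the 3 IEL comparisons (462 higher, 672 lower) became 1048 and 377, and 985 and 366. With 16 added before log2, 32 probes were shared lower and 427 lower in the sums. Of the named shared genes, 20 higher and 25 lower, 20 and 16 stayed past 2-fold without centring. With no signal minimum the shared counts were 217 and 162, the sums 1786 and 1971, and the SP counts (197 and 68) 641 and 343; a minimum of 200 gave 34 and 35, 277 and 409, and 124 and 35. A 3-fold threshold gave 27 and 10, 218 and 226, and 85 and 19, and a 1.5-fold threshold 144 and 280, 1150 and 1928, and 461 and 273. Normexp gave 1032 lower in the sums and 366 lower in SP, with 8 of 57 and 12 of 69 shared probes in common, and turned the least difference of Bub1b (0.06), Camk2n1 (-0.80), Cd244a (-0.34), Cd7 (-1.92), Gzma (-4.75), Iigp1 (0.10), Il10 (0.48) and Litaf (-1.77). Leaving out 1 old array gave between 67 and 91 shared higher and between 72 and 123 shared lower probes: 79 and 116 without old IEL CD4, 91 and 72 without cd27cd28, and 67 and 123 without others, since fewer arrays have to pass. Recomputed values (57 and 67), quantile normalization (67 and 58), centring over probes valued on all 4 arrays (56 and 72), undetected probes at the lowest value (61 and 62) and centring on probes over 100 (69 and 54, chosen after seeing the data) stayed within 1.5 times. The young array could not be left out. No paired analysis was possible because the labels give no replicate numbers and each group has 1 array.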

Other observations

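Genes on which the cd27cd28 array stood apart were looked up after their values were seen. S1pr1, the receptor that guides lymphocyte exit from tissue, had 480.6 on young IEL, 494.6 on old IEL CD4, 556.4 on others and 8.0 on cd27cd28. St6gal1 (a sialyltransferase), Kbtbd11, Ccr7 (the lymph node homing receptor) and Izumo1r (folate receptor 4) were also lower there, with differences from the nearest old array of -5.41, -4.87, -4.68 and -3.52 log2. On old IEL CD4 it was Irs2, an insulin receptor substrate, that stood highest over the other old arrays, by 2.76 log2, followed among genes not yet described by Klf4, a transcription factor, by 1.31. On the others array the cell cycle genes Rrm2 and Ccna2 stood 1.43 and 1.35 log2 above the next old array. What these differences owe to the cell makeup of the fractions was not tested.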
